A study of Mus musculus with 8 samples.

Results

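Retinoic acid synthesis and response genes were examined in cultured mouse brain pericytes, the mural cells that wrap capillaries, after treatment with TGF-β1, a secreted cytokine. The 9 genes were chosen by symbol among the 54532 Ensembl gene identifiers of the deposited tables, and all 9 were found. They were *Rbp4* and *Stra6* (retinol transport and uptake), *Aldh1a1*, *Aldh1a2* and *Aldh1a3* (synthesis), *Crabp1* and *Crabp2* (intracellular binding), *Rarb* (nuclear receptor) and *Cyp26b1* (clearance). Bulk RNA-seq was performed on 4 cultures treated with TGF-β1 (5 μg per mL) and 4 treated with vehicle, all at 48 h, to ask which transcripts the cytokine changes. All 8 were primary cultures of cells from wild-type brain, and the labels give no strain or age. The study's methods give a sex and age for its mice in general and backgrounds for its prostate models, without saying whether these cover the animals used for culture. According to the study's methods, brains were digested with papain, the cells were plated on collagen, grown in endothelial and later in pericyte medium, and characterised after repeated passages. The study's methods describe isolates that received both treatments, whereas the labels run from 1 to 4 for vehicle and from 5 to 8 for TGF-β1 and so pair no cultures, and the groups were compared unpaired.

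Retinoic acid is made from vitamin A inside cells. Retinol travels in blood bound to RBP4, enters cells through the membrane receptor STRA6, is oxidised to retinal by alcohol and short-chain dehydrogenases, and is then irreversibly oxidised to retinoic acid by the ALDH1A enzymes. Retinoic acid is carried in the cell by CRABP proteins, acts on genes through heterodimers of RAR and RXR nuclear receptors, and is removed by CYP26 hydroxylases. In the brain, the meninges are a known source of retinoic acid, and *Rarb*, *Crabp2*, *Stra6*, *Dhrs3* and the *Cyp26* genes are known to be induced by it in various cells.

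The libraries held 45255235 to 47651397 counts, at which 3 counts (a floor for counting error only) correspond to 0.0631 to 0.0657 CPM (counts relative to the library total, scaled by TMM factors). Of 8 genes of a TGF-β response list, 7 were higher with TGF-β1 and *Tgfbi* was lower (230 ± 4.77 and 81.1 ± 10.3 CPM, log2 fold change -1.50, edgeR adjusted p = 9.69e-06), beside 20.9% called higher and 20.3% called lower among all genes tested. Of 12 pericyte markers, *Kcnj8* had at most 3 counts in any culture and *Abcc9* and *Vtn* had under 20, whereas *Pdgfrb*, *Cspg4* and *Anpep* were measured at 202 ± 5.43, 82.8 ± 2.50 and 40.4 ± 3.52 CPM in vehicle (SD, n = 4). *Rgs5*, a marker of brain pericytes in tissue, was at 8.61 ± 0.47 CPM in vehicle, and *Des*, *Ndufa4l2* and *Higd1b* were under 1 CPM (0.684, 0.883 and 0.278). Genes of meningeal and perivascular fibroblasts were also present, with *Foxc1* at 238 ± 7.94 CPM and *Zic1* at 181 ± 4.03 CPM in vehicle. Of the same list, *Slc6a13*, *Slc22a6* and *Lum* had under 20 counts in every culture. Of the endothelial markers, *Cdh5* was at 374.5 ± 6.23 CPM and *Flt1* at 81.6 ± 1.32 CPM in vehicle. *Kdr* was at 17.9 CPM in vehicle, and *Tek*, *Vwf* and *Pecam1* were at 2.71, 1.57 and 1.11 CPM. Others of that list, *Cldn5*, *Emcn*, *Erg* and *Tie1*, had under 20 counts in every culture. Since these are bulk cultures, fewer cells of a type and less RNA per cell cannot be told apart in any value given here. The replicates are numbered cultures, and the p-values measure the spread between these cultures only.

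Of the 9 genes, 7 passed the filter on low counts and 6 of these differed between the groups (edgeR quasi-likelihood test, Benjamini-Hochberg adjusted p under 0.05 over 22544 genes tested). *Stra6*, *Crabp2*, *Rarb* and *Crabp1* rose with TGF-β1, *Aldh1a1* and *Cyp26b1* fell, *Aldh1a3* did not pass the test, and *Aldh1a2* and *Rbp4* had too few counts to be tested. Among all genes tested 41.3% were called, 20.9% as higher and 20.3% as lower, so a call by itself was common in this comparison. A call with an absolute log2 fold change of at least 1 was made for 5.41% of all genes and for 4 of the 7, namely *Stra6*, *Aldh1a1*, *Crabp2* and *Rarb*. The groups of cultures did not overlap for 6 of the 7, as for 37.9% of all genes tested. The median log2 fold change of the 7 was 0.85, beside -0.011 for all genes tested. The genes had been chosen with earlier results of these data known, so these shares describe them and are not evidence about the pathway.

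**Figure D1:**
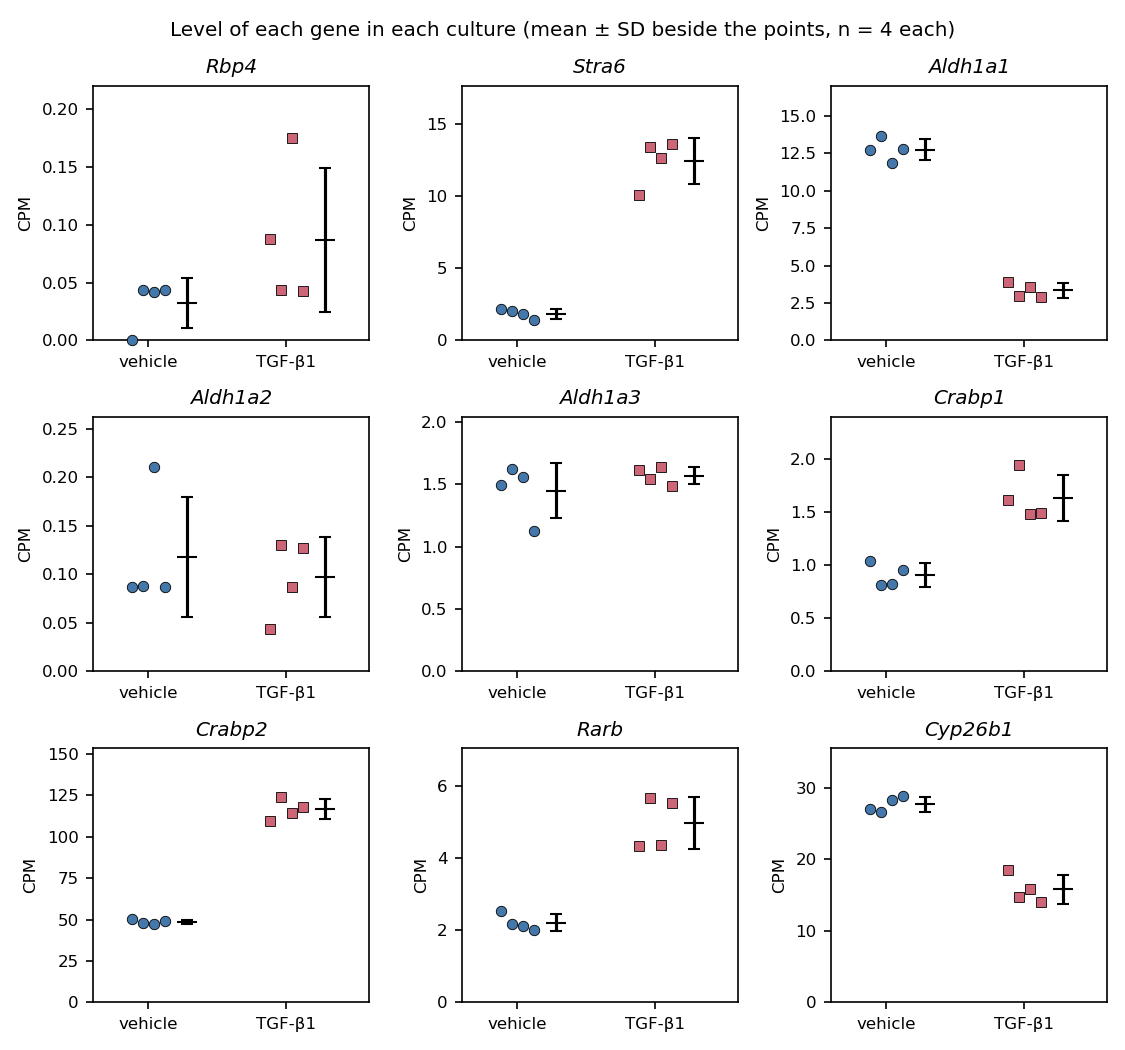
Level of each of the 9 genes (CPM, linear axis from 0, a separate scale for each gene) in 4 vehicle cultures (circles) and 4 TGF-β1 cultures (squares), with the mean and SD to the right of the points. The groups are apart for *Stra6*, *Aldh1a1*, *Crabp1*, *Crabp2*, *Rarb* and *Cyp26b1* and overlap for *Rbp4*, *Aldh1a2* and *Aldh1a3*.

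*Stra6*, the membrane receptor that takes up retinol from RBP4, had the largest change of the 9 genes. It was measured at 2.17, 2.04, 1.83 and 1.39 CPM in vehicle cultures 1 to 4 and at 10.1, 13.4, 12.6 and 13.6 CPM in TGF-β1 cultures 5 to 8. The lowest treated culture, number 5, was still far above the highest vehicle culture. The mean rose 6.70-fold, from 1.86 ± 0.34 to 12.4 ± 1.62 CPM (SD, n = 4 each), with a log2 fold change of 2.74 ± 0.11 (SE, 95% interval 2.51 to 2.97, edgeR adjusted p = 1.68e-21). The exact two-sided permutation test over the 70 assignments of the cultures gave p = 0.0286, the smallest it can give. *Stra6* (ENSMUSG00000032327) is a protein-coding gene at chr9:58063788-58153996 on the plus strand of GRCm38, the assembly that mm10 names, and its exons share no base with those of another annotated gene.

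*Rbp4*, the carrier that delivers retinol to STRA6, was near the limit of detection. The vehicle cultures had 0, 2, 2 and 2 counts and the TGF-β1 cultures had 4, 2, 8 and 2, so the groups overlapped. All 4 vehicle cultures were under 3 counts, and the group difference was not detectable at this depth (exact two-sided permutation test of CPM, p = 0.143). *Rbp4* (ENSMUSG00000024990) lies at chr19:38116629-38125281 on the minus strand.

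Of 5 listed genes of vitamin A storage and carotenoid cleavage, 3 were tested and 1 was called, beside 41.3% called among all genes. The carotenoid-cleaving oxygenase gene *Bco2* fell from 2.52 ± 0.31 to 1.55 ± 0.21 CPM (log2 fold change -0.69 ± 0.15, edgeR adjusted p = 1.96e-04), and for its relative *Bco1* the change of -0.64 ± 0.30 did not pass the test (adjusted p = 0.0869).

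The conversion between retinol and retinal, in either direction, was represented by 16 listed dehydrogenases. Of these, 13 were tested, 2 were higher, 3 were lower and 8 were not called. The 38.5% called was near the 41.3% of all genes. The alcohol dehydrogenase genes *Adh1* and *Adh7* had the largest changes. *Adh1* was measured at 5.77 to 6.98 CPM in vehicle and at 1.38 to 1.77 CPM with TGF-β1, a 3.85-fold lower mean (log2 fold change -1.94 ± 0.12, edgeR adjusted p = 3.03e-18). *Adh7* was measured at 28.6 to 30.7 CPM and at 12.7 to 13.9 CPM, a 2.22-fold lower mean (-1.15 ± 0.051, adjusted p = 4.02e-23). In both genes every treated culture was below every vehicle culture. *Dhrs3*, which reduces retinal back to retinol, rose from 20.2 ± 1.64 to 32.9 ± 1.04 CPM (0.71 ± 0.049, adjusted p = 2.84e-16). *Rdh10*, the main retinol dehydrogenase of the embryo, rose by less, from 21.9 ± 0.46 to 25.7 ± 0.56 CPM (0.23 ± 0.046, adjusted p = 5.62e-05), and *Rdh14* fell from 16.2 ± 0.83 to 13.4 ± 0.56 CPM (-0.28 ± 0.059, adjusted p = 1.41e-04).

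*Aldh1a1*, which oxidises retinal to retinoic acid, had the largest fall of the 9 genes. It was measured at 12.7, 13.6, 11.9 and 12.8 CPM in the vehicle cultures and at 3.92, 2.98, 3.60 and 2.89 CPM in the TGF-β1 cultures. Each treated culture was far below each vehicle culture, and cultures 5 and 7 were the higher of the treated ones. The mean was 3.81-fold lower with TGF-β1, at 3.35 ± 0.50 against 12.8 ± 0.72 CPM (SD, n = 4 each), with a log2 fold change of -1.93 ± 0.089 (95% interval -2.11 to -1.75, edgeR adjusted p = 1.87e-22; exact permutation p = 0.0286). *Aldh1a1* (ENSMUSG00000053279) lies at chr19:20492715-20643465 on the plus strand. Of its 50-base exon words, 3.06% also occur in *Aldh1a7*, a close paralogue on the same chromosome, so a small part of its reads could have been split between these genes.

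*Aldh1a7* itself fell from 2.56 ± 0.34 to 0.73 ± 0.20 CPM (-1.81 ± 0.19, edgeR adjusted p = 3.66e-11). For *Aldh8a1*, which oxidises the 9-cis form of retinal, the change of -0.44 did not pass the test (adjusted p = 0.219).

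*Aldh1a3* encodes another retinal dehydrogenase, known from the eye and the nose of the embryo. Its values were 1.50, 1.62, 1.56 and 1.13 CPM in vehicle and 1.61, 1.54, 1.64 and 1.49 CPM with TGF-β1. The groups overlapped, with vehicle culture 4 the lowest of the 8. The means were 1.45 ± 0.22 and 1.57 ± 0.067 CPM (SD, n = 4 each), and the log2 fold change of 0.11 ± 0.17 did not pass the test (edgeR adjusted p = 0.640), with a 95% interval of -0.23 to 0.46. *Aldh1a3* (ENSMUSG00000015134) lies at chr7:66390890-66427517 on the minus strand.

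*Aldh1a2*, the retinal dehydrogenase known from the embryo and the meninges, was near the limit of detection in these cultures. It had 4, 4, 10 and 4 counts in vehicle and 2, 6, 4 and 6 counts with TGF-β1. The groups overlapped, at 0.118 ± 0.062 and 0.0972 ± 0.041 CPM, and a difference was not detectable at this depth (exact two-sided permutation test, p = 0.629). *Aldh1a2* (ENSMUSG00000013584) lies at chr9:71215789-71296243 on the plus strand.

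The makeup of the retinal dehydrogenase transcripts was described per length, as CPM per kilobase of merged exon, a comparison chosen after the values were seen and not tested. The sum of *Aldh1a1*, *Aldh1a2* and *Aldh1a3* was 2.95 ± 0.14 CPM per kb in vehicle and 1.06 ± 0.096 with TGF-β1. *Aldh1a7* (1.24 CPM per kb in vehicle and 0.3545 with TGF-β1) and *Aldh8a1* (0.149 and 0.110) were left out of that sum. *Aldh1a1* made up 87.6 ± 2.19% of that sum in vehicle and 63.7 ± 3.71% with TGF-β1. The share of *Aldh1a3* was 10.6 ± 1.49% and 32.2 ± 1.69%, although its own level passed no test. In every culture of both groups *Aldh1a1* remained the largest component, at 60.6% or more.

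**Figure D2:**
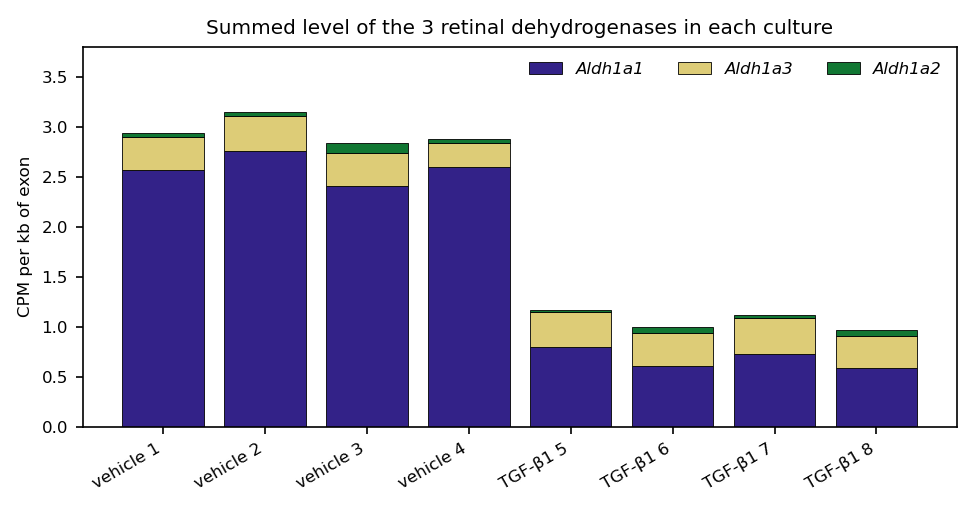
Summed level of *Aldh1a1*, *Aldh1a3* and *Aldh1a2* in each of the 8 cultures (CPM per kb of exon, stacked bars from 0, 1 bar per culture). The sums lie between 2.84 and 3.15 in vehicle and between 0.964 and 1.16 with TGF-β1, and the difference is carried by the *Aldh1a1* segment.

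*Crabp2*, which delivers retinoic acid to nuclear receptors, had the highest level per exon length of the 9 transcripts. Its level was measured at 50.1, 47.8, 47.6 and 49.1 CPM in the vehicle cultures and at 109.7, 124, 114 and 118 CPM in the TGF-β1 cultures. The vehicle values were close together, and each treated value was at least 2 times as high as any of them. The mean rose 2.40-fold, from 48.6 ± 1.18 to 116 ± 6.12 CPM (SD, n = 4 each), with a log2 fold change of 1.26 ± 0.033 (95% interval 1.19 to 1.33, edgeR adjusted p = 6.72e-31; exact permutation p = 0.0286). *Crabp2* (ENSMUSG00000004885) lies at chr3:87948666-87953376 on the plus strand.

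*Crabp1*, the other cellular retinoic acid binding protein, which has been linked to retinoic acid breakdown, had a lower level, also per exon length. Its values were 1.04, 0.811, 0.820 and 0.952 CPM in vehicle and 1.61, 1.94, 1.48 and 1.49 CPM with TGF-β1. The groups did not overlap, but the gap between them was narrower than for *Crabp2*. The mean rose 1.80-fold, from 0.906 ± 0.111 to 1.63 ± 0.213 CPM (SD, n = 4 each), with a log2 fold change of 0.85 ± 0.19 (95% interval 0.47 to 1.22, edgeR adjusted p = 2.35e-04; exact permutation p = 0.0286). *Crabp1* (ENSMUSG00000032291) lies at chr9:54764748-54773110 on the plus strand, and it rests on 37 to 89 counts per culture.

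Per exon length, *Crabp2* made up 97.0 ± 0.28% of the 2 binding protein transcripts in vehicle and 97.8 ± 0.22% with TGF-β1. *Fabp5*, a fatty acid binding protein that also carries retinoic acid, rose from 11.8 ± 0.90 to 15.8 ± 1.00 CPM (0.42 ± 0.064, edgeR adjusted p = 3.95e-07). *Crabp1*, *Crabp2* and *Fabp5* were each called higher, as were 20.9% of all genes tested.

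*Rarb*, the retinoic acid receptor whose gene is itself a classical retinoic acid target, rose in all treated cultures. It was measured at 2.54, 2.17, 2.10 and 2.01 CPM in vehicle and at 4.34, 5.66, 4.36 and 5.51 CPM with TGF-β1. The treated cultures lay in pairs, with 5 and 7 lower than 6 and 8, and all were above the vehicle cultures. The mean rose 2.25-fold, from 2.21 ± 0.23 to 4.96 ± 0.71 CPM (SD, n = 4 each), with a log2 fold change of 1.17 ± 0.12 (95% interval 0.92 to 1.42, edgeR adjusted p = 6.58e-11; exact permutation p = 0.0286). *Rarb* (ENSMUSG00000017491) spans chr14:16430839-16819156 on the minus strand. It shares 1793 exon bases (34.1% of its exons) with *Top2b*, a DNA topoisomerase gene on the opposite strand, and the strand setting of the counting was not given in the sources used here. *Top2b* was measured at 223 ± 4.03 and 218 ± 4.50 CPM, and its change of -0.032 ± 0.024 did not pass the test (adjusted p = 0.318). Its part in the *Rarb* counts was not tested.

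The other receptors moved less. *Rarg* rose from 194 ± 4.10 to 232 ± 3.27 CPM (0.26 ± 0.024, edgeR adjusted p = 2.24e-12), *Rara* fell slightly, from 62.8 to 59.0 CPM (-0.092, adjusted p = 0.0188), and *Rxra* fell from 227 ± 2.32 to 166 ± 7.99 CPM (-0.45 ± 0.027, adjusted p = 2.34e-18). The call of *Rara* was lost without vehicle culture 2 (edgeR adjusted p = 0.102) or TGF-β1 culture 8 (adjusted p = 0.0904). Per exon length, *Rarb* was 0.69 ± 0.067% of the summed RAR transcripts in vehicle and 1.37 ± 0.19% with TGF-β1, and *Rarg* was 75.4 ± 0.84% and 79.0 ± 0.23%. *Rarb* had the largest fold change of the receptors and had the lowest level per exon length of the RAR transcripts in both groups. All 6 receptor cofactors listed were called, 2 higher and 4 lower, beside 41.3% called among all genes, and none had an absolute log2 fold change of 1 or more. Among them *Ncoa3*, a coactivator, fell from 123 ± 1.89 to 98.5 ± 2.00 CPM (-0.32 ± 0.027, adjusted p = 9.00e-14).

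Promoter sequences are shown because retinoic acid receptors are known to bind direct repeats of a 6-base half-site, and those with 5 bases between (DR5) are the best-known response element. Windows of 250 bases before to 50 bases after the annotated start were taken from RefSeq (GRCm38.p6), which listed 12 windows for 7 of the 9 genes. Both strands were searched for the half-site AGGTCA, for its common variant AGTTCA, and for the forms that begin with G instead, GGGTCA in the former case and GGTTCA in the latter. Direct repeats of these with 5, 2 or 1 bases between were sought too, as was the palindromic SMAD motif GTCTAGAC and the GC-rich SMAD motif GGCGCC. The 250 bases upstream are printed 5′ to 3′ on the strand of the gene for *Rarb* (chr14:16575477-16575726, minus), *Crabp1* (chr9:54764498-54764747, plus), the second of the 2 *Aldh1a1* starts (chr19:20601718-20601967, plus) and *Cyp26b1* (chr6:84593811-84594060, minus), all genes that changed, with half-sites and GGCGCC in capitals.
Rarb: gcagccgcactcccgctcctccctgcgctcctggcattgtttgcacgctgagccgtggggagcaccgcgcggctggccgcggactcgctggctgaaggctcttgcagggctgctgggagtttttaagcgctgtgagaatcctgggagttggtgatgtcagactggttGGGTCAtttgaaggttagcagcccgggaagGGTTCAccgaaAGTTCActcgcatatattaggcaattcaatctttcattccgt
Crabp1: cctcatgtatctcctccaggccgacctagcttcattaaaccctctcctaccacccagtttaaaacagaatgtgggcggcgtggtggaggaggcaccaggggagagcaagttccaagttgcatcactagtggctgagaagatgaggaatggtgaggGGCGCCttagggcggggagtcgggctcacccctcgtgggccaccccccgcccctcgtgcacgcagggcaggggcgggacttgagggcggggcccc
Aldh1a1: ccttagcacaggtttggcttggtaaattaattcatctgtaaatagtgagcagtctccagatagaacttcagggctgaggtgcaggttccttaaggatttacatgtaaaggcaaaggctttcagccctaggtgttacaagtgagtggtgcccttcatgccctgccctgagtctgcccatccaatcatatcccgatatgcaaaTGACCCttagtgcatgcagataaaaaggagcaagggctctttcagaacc
Cyp26b1: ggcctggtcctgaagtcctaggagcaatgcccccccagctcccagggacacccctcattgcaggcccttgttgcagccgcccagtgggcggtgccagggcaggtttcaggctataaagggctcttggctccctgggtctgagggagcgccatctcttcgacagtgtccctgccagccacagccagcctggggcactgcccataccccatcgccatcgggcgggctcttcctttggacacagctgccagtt

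The *Rarb* window held a DR5, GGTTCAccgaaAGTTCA, from 53 to 37 bases before the start (positions -53 to -37), and a further half-site GGGTCA at -83 to -78. A DR5 of these letters was found in 32 of 32851 listed promoters (0.0974%), and *Rarb* was the only one of the 7 genes with a listed window to hold it. DR2 and DR1 repeats (0.268% and 0.222% of all promoters) and GTCTAGAC (0.213%) were found in none of the 12 windows. GGCGCC, which 11.9% of promoters hold, was found in the *Crabp1* window at -95 to -90 and at 2 places in that of *Aldh1a2*. Single half-sites, which 43.7% of promoters hold, were found in 1 window each of *Aldh1a1* (-49 to -44, on the minus strand of the gene), *Rbp4* and *Stra6*, and the *Cyp26b1* window held none of the motifs. The promoter of *Cyp26a1*, the hydroxylase best known as a retinoic acid target, held a DR5 on the opposite strand, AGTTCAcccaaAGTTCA, at -32 to -16. The 32 DR5 promoters belong to 31 genes, of which 7 were tested and 2 were called higher (*Rarb* and *Blvrb*, the latter with a log2 fold change of 0.25) and 1 lower (*Syndig1*, -1.22), against 41.3% called among all genes. These matches are descriptions of letters in a window and say nothing of binding. The *Rarb* window lies inside the annotated gene (chr14:16430839-16819156), and the counts are per gene. Transcripts from the start of that window were therefore not measured separately.

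*Cyp26b1*, the hydroxylase that clears retinoic acid, fell with TGF-β1. It was measured at 27.1, 26.6, 28.2 and 28.9 CPM in vehicle and at 18.5, 14.7, 15.8 and 14.0 CPM in the treated cultures. Culture 5 was the highest of the treated ones and was still below each vehicle culture. The mean was 1.76-fold lower with TGF-β1, at 15.8 ± 1.97 against 27.7 ± 1.05 CPM (SD, n = 4 each), with a log2 fold change of -0.81 ± 0.060 (95% interval -0.94 to -0.69, edgeR adjusted p = 1.84e-13; exact permutation p = 0.0286). *Cyp26b1* (ENSMUSG00000063415) lies at chr6:84571414-84593908 on the minus strand. *Cyp26c1* was measured at 1.27 ± 0.24 and 1.19 ± 0.41 CPM and did not pass the test (-0.099 ± 0.21, adjusted p = 0.751). *Cyp26a1* had 8, 8, 14 and 9 counts in vehicle and 8, 16, 3 and 9 counts with TGF-β1 and was not tested. *Cyp26b1* made up 86.2 ± 2.15% of the summed *Cyp26* transcripts per exon length in vehicle and 79.3 ± 6.54% with TGF-β1.

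Per exon length, the order of the 9 genes differed between the groups. In vehicle, *Crabp2* was highest at 36.8 CPM per kb, followed by *Cyp26b1* (5.17), *Aldh1a1* (2.58), *Crabp1* (1.13) and *Rarb* (0.419). *Stra6* and *Aldh1a3* came next at 0.318 and 0.314 CPM per kb, with overlapping ranges, and *Aldh1a2* and *Rbp4* were lowest at 0.0520 and 0.0240. With TGF-β1, *Crabp2* (88.1) and *Cyp26b1* (2.95) kept the first places, and *Stra6* (2.13) and *Crabp1* (2.03), whose ranges overlapped, came before *Rarb* (0.943). *Aldh1a1* followed at 0.678 CPM per kb, *Aldh1a3* at 0.340, and *Rbp4* and *Aldh1a2*, again with overlapping ranges, at 0.0647 and 0.0429. *Stra6* moved from the sixth place to the third and *Aldh1a1* from the third to the sixth.

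**Figure D3:**
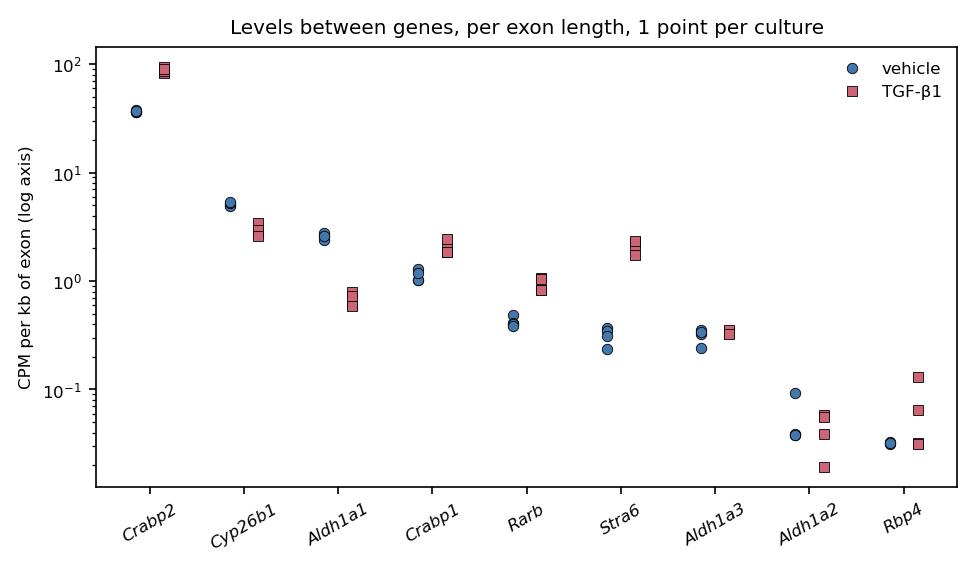
Level of each gene per exon length (CPM per kb of merged exon, log axis, 1 point per culture) in vehicle (circles) and TGF-β1 (squares), ordered by the vehicle mean. *Crabp2* is highest in both groups (36.8 and 88.1 CPM per kb on average), *Stra6* and *Aldh1a1* exchange places, and the vehicle culture in which *Rbp4* had a count of 0 has no point on the log axis.

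Across the 43 other retinoid pathway genes found of the 44 listed, 31 were tested, 6 were higher, 13 were lower and 12 were not called, with a median log2 fold change of -0.092. The share called was 61.3%, beside 41.3% among all genes tested. Among the genes called, *Adh1*, *Adh7* and *Aldh1a7* alone changed by at least 1 on the log2 scale, and all 3 fell. A call with a change of that size was made for 5.41% of all genes tested. The 12 genes found but not tested had at most 49 counts summed over a group, and nothing is said of their changes here. Of 15 known retinoic acid targets outside the 9 genes, 6 were tested and all 6 were called, 3 higher and 3 lower, with a median of 0.090, beside 41.3% called among all genes. Of these 6, 3 are also in the pathway list. Among the targets, *Tgm2*, a transglutaminase, rose from 30.8 ± 2.17 to 51.0 ± 1.30 CPM (0.73 ± 0.041, edgeR adjusted p = 3.29e-19). *Dhrs3* (0.71) also rose, *Nrip1* rose by less (0.26), and *Rarres1* (-0.36, edgeR adjusted p = 1.09e-04) fell. The call of *Meis2* as lower (-0.077, adjusted p = 0.0381) was lost with DESeq2, with DESeq2 size factors and with 6 of the 8 cultures left out in turn (adjusted p = 0.0553 to 0.144), which leaves 5 of the 6 targets called. The targets tested outside the 9 genes therefore did not share 1 direction.

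**Figure D4:**
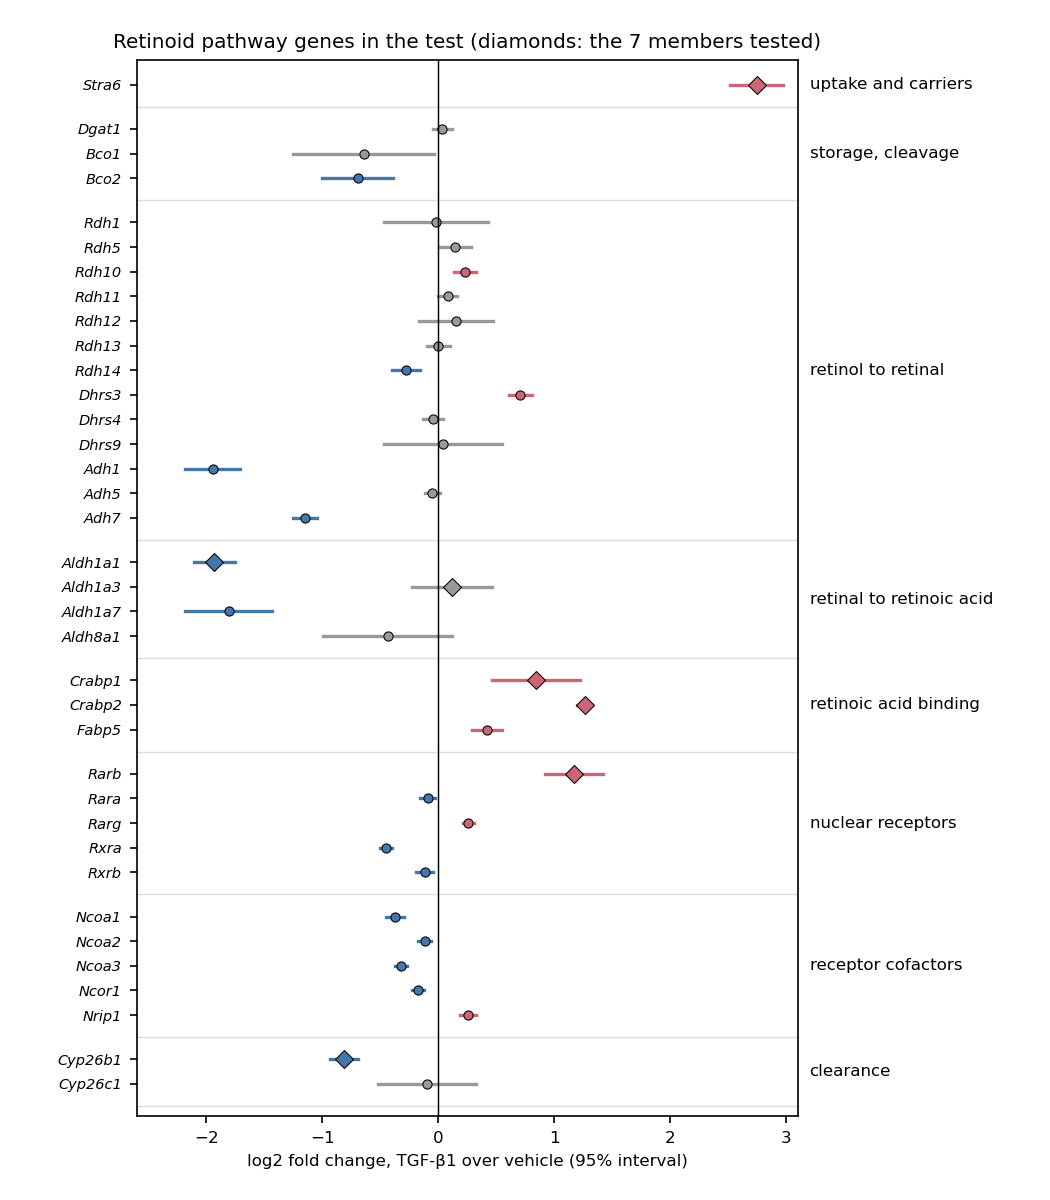
Log2 fold change, TGF-β1 over vehicle, with its 95% interval, for the 7 genes tested of the 9 (diamonds) and 29 of the 31 other pathway genes tested (circles), grouped by role, in red where higher, blue where lower and grey where not called. *Stra6* lies farthest to the right at 2.74, and *Adh1*, *Aldh1a1* and *Aldh1a7* lie farthest to the left at -1.94, -1.93 and -1.81. The group labelled retinol to retinal holds the genes of both directions, among them *Dhrs3*, which reduces retinal back to retinol.

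Within the TGF-β1 group, culture 5 was the nearest to the vehicle mean for 5 of the 6 called genes and culture 7 for the other, *Crabp1*. The genes most like the 3 with the lowest adjusted p were sought by Pearson's r of log2 CPM over the 8 cultures among 16484 genes, as a description in which the difference between the groups sets most of the value. For *Crabp2* these were *Tnfrsf23*, *Sulf1* and *Gm8113* (r = 0.999 or above), for *Aldh1a1* they were *Aox3*, *Sned1* and *Ptgds* (r = 0.999 or above), and for *Stra6* they were *Kdelr3*, *Atrn* and *Ltbp2* (r = 0.998). *Aox3*, which encodes an aldehyde oxidase, was measured at 39.1 CPM in vehicle and 7.45 CPM with TGF-β1.

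Some markers of other cell types moved with the treatment too, beside 41.3% called among all genes, and their part in these results was not tested. For the endothelial and astrocyte lists, the share called (3 of 6 tested in each) was near that of all genes. Of 26 meningeal and perivascular fibroblast markers, 23 were tested, 3 were higher and 13 were lower, and their summed level was 3223 to 3361 CPM in vehicle and 3728 to 3892 CPM with TGF-β1. *Col1a1* alone was at 1586 and 2522 CPM on average, and without it the sum was 1689 to 1742 CPM in vehicle and 1269 to 1350.0 CPM with TGF-β1. *Ptgds*, named above as one of the genes most like *Aldh1a1*, is one of these fibroblast markers (31.1 ± 3.26 and 3.29 ± 0.56 CPM, log2 fold change -3.24). Of 12 pericyte markers 9 were tested, of which *Pdgfrb* (log2 fold change 0.53), *Cspg4* (1.03), *Mcam* (0.94) and *Ndufa4l2* (1.85) were higher and *Rgs5* (-2.01, from 8.61 to 2.13 CPM) and *Anpep* (-0.43) were lower. Their sum was 419.6 to 439.7 CPM and 581 to 603 CPM, or 221 to 231 CPM and 292 to 310.4 CPM without *Pdgfrb*. Of 8 choroid plexus markers 6 were tested and *Aqp1* alone was called, as lower (log2 fold change -1.93), with *Ttr*, *Kl* and *Otx2* under 20 counts in every culture. Their sum was 135 to 138 CPM in vehicle and 32.4 to 43.5 CPM with TGF-β1, and without *Aqp1* it was 2.27 to 2.61 CPM and 1.59 to 2.57 CPM, which overlap. Of 10 endothelial markers 6 were tested, of which *Vwf* (log2 fold change 1.27) and *Flt1* (0.28) were higher and *Tek* (-0.45) was lower, with *Cldn5*, *Emcn*, *Erg* and *Tie1* under 20 counts. Their sum was 472 to 485 CPM and 475 to 500.4 CPM, or 103 to 108 CPM and 123 to 127 CPM without *Cdh5*, which did not pass the test. Of 7 astrocyte markers 6 were tested, of which *Slc1a3* was higher (0.64) and *Slc1a2* (-1.24) and *S100b* (-1.55) were lower, with *Aqp4* under 20 counts. Their sum was 245 to 258 CPM and 218 to 230.1 CPM, or 53.2 to 59.7 CPM and 34.9 to 39.7 CPM without *Gja1*, which did not pass the test. Of 8 microglial markers 5 were tested and *Csf1r* was higher (0.73), with *C1qa*, *C1qb* and *Tyrobp* at 3 counts or fewer and a sum of 2.94 to 3.86 CPM and 4.34 to 5.16 CPM. Without *Csf1r* the sums were 1.69 to 2.27 CPM and 1.94 to 2.83 CPM, which overlap.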

How the data were processed

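RNA from 8 cultures was sequenced with an Illumina stranded total RNA preparation. According to the study's methods and the submitters' processing notes, the authors used STAR 2.7.5c for alignment to mm10, SAMtools 1.15 to discard PCR duplicates and featureCounts 2.0.3 to count. The deposited values are raw counts per Ensembl gene. The annotation release, the strand setting and the treatment of shared reads are not given in the sources used here. Of the counts from 1 to 20, 68.5 to 70.2% were even, so both mates of a pair may have been counted and there may be fewer independent fragments than counts.

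Symbols were matched for 54409 of the 54532 identifiers, and positions and exon lengths (GENCODE M21) for 54495. The main test was edgeR 4.0.16 in R 4.3.3 (filterByExpr, TMM, robust quasi-likelihood test, group only) with Benjamini-Hochberg adjustment over 22544 genes and a threshold of 0.05. CPM were computed from counts and TMM-scaled library totals. Values of one gene were also tested by exact two-sided permutation of the cultures.

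The 9 genes and the lists were chosen with earlier results of these data known. The genes named are all 9, the pathway and target genes called with an absolute log2 fold change of at least 1, the 2 with the lowest adjusted p in each role, and the 3 most alike (mean of at least 1 CPM, 0.5 added before log2) for each of 3 genes. *Rdh10*, *Rdh14*, *Rara*, *Nrip1*, *Meis2*, *Rarres1*, *Cyp26a1*, *Blvrb*, *Syndig1*, *Top2b* and the single markers were named after their values were seen. A few genes covered by the rule are left unreported. Promoter windows of *Crabp2* and *Aldh1a3* were not analysed here. The alternatives were DESeq2 1.42.0 (the tool of the study's methods), DESeq2 size factors or library totals in edgeR, 2 other filters, counts divided by 2 and rounded up, and each culture left out. The code was tested on simulated data.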

Additional observations from a re-analysis of the deposited data

Results flagged for a closer look

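In 48 groups of 4 cultures examined, 2 held a culture far from the other 3 (Dixon's test at the 95% level), where chance gives about 1 in 20. *Aldh1a2* was measured at 0.210 CPM in vehicle culture 3, with the nearest culture at 0.0877 CPM. This is 10 counts against 4 in each other vehicle culture. *Rbp4* was measured at 0.0 CPM in vehicle culture 1, with the nearest culture at 0.0420 CPM. This is 0 counts against 2. Both genes were too low to be tested across all genes.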

How the results depend on the processing

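The 6 called genes were called in the same direction, 4 higher and 2 lower, under each of the 6 alternatives and with each culture left out, and *Aldh1a3* passed in none of them. The count over all genes was 8655 to 9307 under the alternatives and 8558 to 9038 with a culture left out. With a culture left out, the log2 fold change ranged from 2.62 to 2.83 for *Stra6*, 1.23 to 1.29 for *Crabp2*, 1.10 to 1.25 for *Rarb*, 0.75 to 0.92 for *Crabp1*, -2.02 to -1.86 for *Aldh1a1*, -0.90 to -0.75 for *Cyp26b1* and 0.010 to 0.18 for *Aldh1a3*. The pathway count was 17 to 20 and the target count 5 to 6 in all these fits. *Bco1* passed the test with at least 10 counts required in every culture (-0.64, edgeR adjusted p = 0.0494), where fewer genes are tested. With a culture left out, the change of *Cyp26c1* ranged from -0.37 to 0.016, turning without TGF-β1 culture 8, and the difference in mean CPM of *Aldh1a2* ranged from -0.032 to 0.010, turning without vehicle culture 3. Neither passed a test in any of these fits, and the cause was not tested. With *Aldh1a2* and *Rbp4* fitted without the filter, the log2 fold changes were -0.28 ± 0.71 (edgeR adjusted p = 0.858) and 1.35 ± 1.05 (adjusted p = 0.411). With AGGTCA and AGTTCA as the only half-sites, which drops GGTTCA and with it the *Rarb* match, DR5 was found in 0.0396%, DR2 in 0.0396% and DR1 in 0.0822% of promoters. No paired analysis was possible because the labels give the groups no replicate number in common. Depth limits what can be said of *Rbp4*, *Aldh1a2* and *Cyp26a1*, and a change in *Aldh1a3* within its interval cannot be seen with 4 cultures a group.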
